A study of Solanum lycopersicum with 18 samples.

Results

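The genes described here were examined for whether their change at 4 h differed between 2 tomato lines, Micro-TOM-EX (EX) and Micro-TOM (MT). For each gene the interaction was the change in EX leaves (4 h minus 0 h) minus the change in MT leaves (4 h minus 0 h), on the scale log2(FPKM + 1), where FPKM is the number of fragments scaled to transcript length and library depth. A positive value means that EX moved up more, or down less, than MT. Of the 23348 genes in the deposited table, 17731 had a mean of at least 1 FPKM in any of the 4 groups and were tested, and 5617 lay under that floor. Just inside the floor were BGI_novel_G000363 and LOC101262788, whose highest group means stood at the floor, and just outside it were LOC104646686 and LOC101258407, at 0.997 FPKM.

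The 4 groups were leaves of genotype Micro-TOM-EX at 4 h and at 0 h and leaves of genotype Micro-TOM at 4 h and at 0 h, with 3 libraries each, out of 18 libraries at 0, 4 and 12 h. Micro-TOM is a dwarf tomato cultivar used as a laboratory model, and the labels do not say how the EX line was made, at which temperature plants were kept, or at what age they were sampled. A growth note describes soil-grown greenhouse plants of both lines exposed to cold for 0, 4 or 12 h, whereas the tag for stress marks all MT libraries as control and all EX libraries, those of 0 h too, as cold. Groups were therefore defined by genotype and time alone. Whether replicate libraries represent different plants is not labelled, so p-values measure the spread between libraries, which may be technical.

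Chilled tomato leaves are known to switch on CBF/DREB transcription factors and to alter growth, photosynthesis and nitrogen use. Leaves sampled hours apart also differ through light and the circadian clock, and since 0 h and 4 h leaves of a line were compared with no untreated leaves at 4 h, cold and time of day cannot be told apart within a line. An interaction removes what both lines share at 4 h, and it also carries any difference between the lines that was present at 0 h and gone at 4 h. The table is rounded to 2 decimals, and low values fell on steps of whole fragments that gave 15950000 to 18350000 fragments per library. Leaf mesophyll markers summed to 16209 to 17021 FPKM in EX leaves at 4 h and 11596 to 19925 at 0 h, against 7213 to 13847 in MT leaves at 4 h and 7198 to 16370 at 0 h (5 of 13 listed markers in the table). Flower and pollen markers (4 of 12) summed to at most 2.46 FPKM in the 4 groups and glandular trichome markers (4 of 11) to at most 5.58. Ripening fruit markers (5 of 13) summed to 6.38 to 243.5 FPKM, mainly ACO1, with E8, RIN and ACS4 at group means of 0 to 0.0867. Root markers (3 of 8), mainly ARPI, summed to 135.9 to 142.1 FPKM in EX leaves at 4 h and 182.2 to 272.5 at 0 h, against 24.8 to 71.0 in MT leaves at 4 h and 24.3 to 48.5 at 0 h. Libraries were most alike in EX at 4 h, with a median within-group SD of 0.129 on the log2 scale, compared with 0.190 for EX at 0 h, 0.270 for MT leaves of 4 h and 0.267 for MT leaves of 0 h. Replicate 1 of MT at 0 h and replicate 1 of MT at 4 h stood apart from the other 10 libraries on the component that carried 23.9% of the variance.

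Both lines changed many genes at 4 h, and their calls overlapped in part. In EX, 1124 genes rose and 896 fell between 0 h and 4 h (11.4% of tested genes called), and in MT 1212 rose and 1334 fell (14.4%), at an adjusted p under 0.05. These counts rest on a spread shared by all groups. With weights per group, which let the spread differ between groups, 3384 genes were called in EX and 901 in MT, so the order of the lines reversed. Both lines called 1218 genes in the same direction, 640 higher and 578 lower, which is 60.3% of the EX calls and 47.8% of the MT calls. Across the 17731 genes the changes in EX and in MT had a Pearson r of 0.738 and a Spearman rho of 0.638. These are correlations across genes, which are not independent replicates, although the 2 changes share no library.

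The interaction was called for 18 genes (0.102% of the tested genes), 9 positive (0.0508%) and 9 negative (0.0508%). At an unadjusted p under 0.05 there were 1159 genes (6.54%), 608 positive (3.43%) and 551 negative (3.11%). The median interaction was 0.04, the middle 90% of genes lay between -0.69 and 0.57, and the 95% interval reached a median of 0.58 to either side. A difference in response smaller than that could not be told from 0 for a typical gene, even before adjustment. A call after adjustment needed a larger difference, and the smallest called size was 1.22. An interaction of at least 1 in size was estimated for 588 genes (3.32%). Called genes had sizes of 1.22 to 5.34. Only 2 of the called genes carry a gene symbol, GLB1 and GABA-TP3, and 2 are transcript models that the authors added to the annotation. The other 14 are named by their identifiers and have no role that could be given here.

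**Figure D1:**
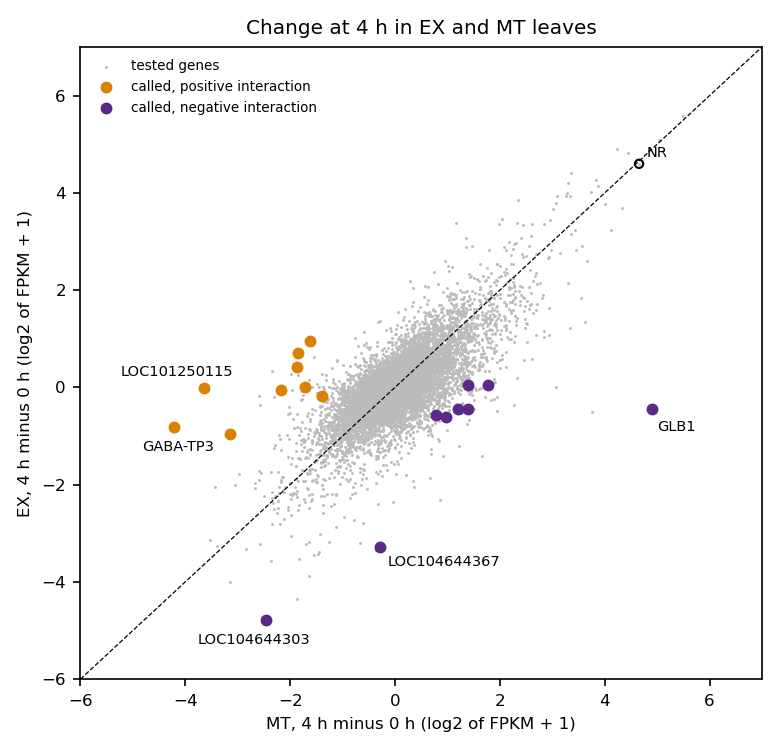
Change between 0 h and 4 h in EX leaves (vertical) against the change in MT leaves (horizontal), log2 of FPKM + 1, for the 17731 tested genes in grey and the 18 called genes in colour, with equal change on the dashed line. Most called genes lie near 0 on the EX axis and away from 0 on the MT axis, whereas NR, a nitrate reductase gene, lies close to the dashed line at 4.597 in EX and 4.65 in MT.

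The group that stood out was usually MT at 0 h. For each gene the group farthest from the mean of the other 3 was found, and this was MT at 0 h in 13 of the 18 called genes, MT at 4 h in 3, EX at 4 h in 2 and EX at 0 h in 0. Over all tested genes those shares were 33.2%, 21.54%, 20.3% and 24.98%. The change in MT was the larger of the 2 in 16 of 18 called genes (54.7% of tested genes), and the MT change was itself called in 17 while the EX change was called in 6. Calls within a line used the spread shared by all groups. All EX libraries lay on 1 side of all MT libraries at 0 h in 17 of the 18 (21.7% of tested genes), at 4 h in 10 (22.2%) and at 12 h in 11 (12.2%). The 18 genes were called on these same 0 h and 4 h values. The counts that use those times therefore describe the selected genes and are no separate support. Some of the 13 were tested only because they reached 1 FPKM in MT at 0 h. The 12 h libraries did not enter the contrast. In 10 of the 13 genes set apart by MT at 0 h, the mean of MT at 12 h lay between MT at 0 h and the other 3 groups. Since these genes were picked by MT at 0 h, this is given as a description.

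**Figure D2:**
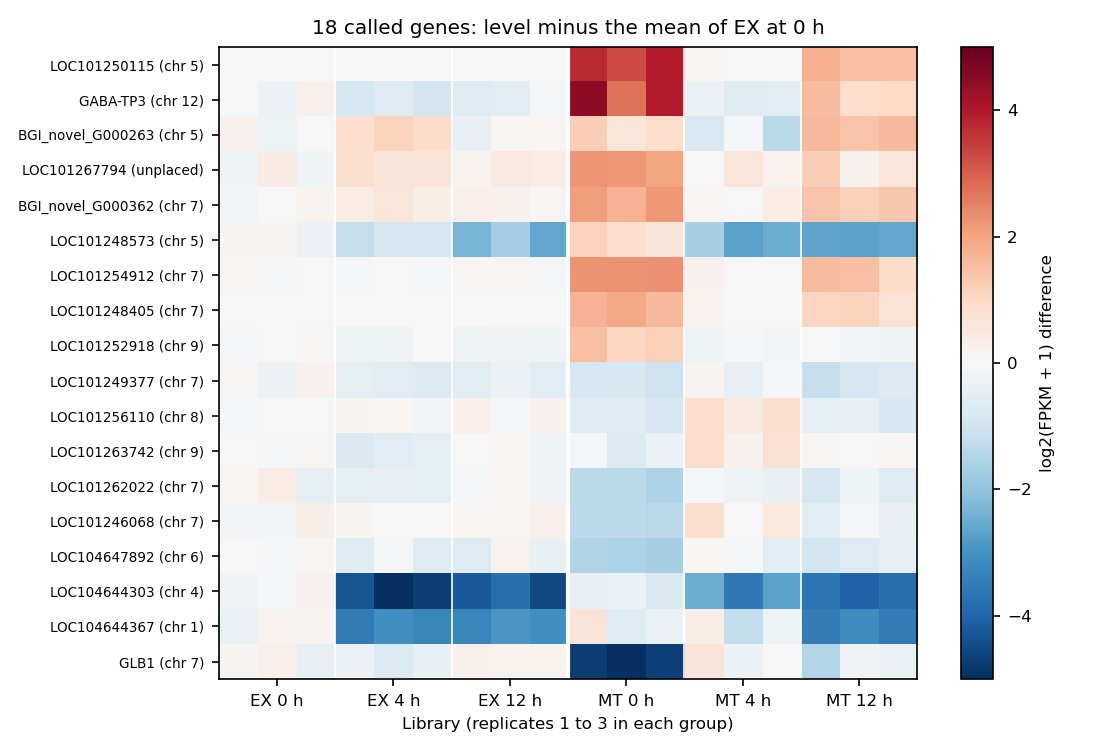
Level of the 18 called genes (rows, from the most positive to the most negative interaction, with chromosome) in the 18 libraries (columns, 0, 4 and 12 h), as the difference in log2(FPKM + 1) from the mean of EX at 0 h. The MT 0 h columns are the ones that differ in most rows, the MT 12 h columns are paler in the same colour for most of these, and LOC104644303 and LOC104644367 differ at EX 4 h.

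GLB1, a class 1 non-symbiotic hemoglobin of the kind known for removing nitric oxide, had the most negative interaction. It stood at 24.97, 18.9 and 23.6 FPKM in EX leaves at 4 h and 34.2, 36.97 and 22.9 at 0 h. GLB1 in MT leaves stood at 48.1, 24.8 and 30.1 at 4 h and 0.19, 0 and 0.25 at 0 h. Signal was close to absent in all MT libraries at 0 h, and the other 3 groups overlapped. In MT it rose by 4.90 on the log2 scale (adjusted p = 9.17e-08), while in EX the difference was -0.44 (adjusted p = 0.403), which gave an interaction of -5.34 (SE 0.42, adjusted p = 1.29e-05). At 12 h it stood at 35.4, 34.5 and 35.1 FPKM in EX and 10.5, 27.1 and 24.1 in MT. The authors' deposited table gives log2 ratios of -0.47 in EX and 7.97 in MT for the same times. GLB1 lies on chromosome 7, 2965697 to 2967964.

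LOC101246068 (chromosome 7, 4378755 to 4380082) followed the same course at a higher level, with 131, 120.5 and 122.1 FPKM in EX leaves at 4 h and 109, 109 and 144.9 at 0 h. LOC101246068 in MT leaves stood at 211, 120.1 and 172 at 4 h and 48.2, 47.9 and 44.9 at 0 h. Every MT library at 0 h was below every library of the other groups, and its interaction was -1.72 (SE 0.25, adjusted p = 0.01). LOC101262022 (chromosome 7, 2323841 to 2335310) had 10.5, 11.3 and 11.03 FPKM in EX leaves at 4 h and 16.5, 19.8 and 10.9 at 0 h. LOC101262022 in MT leaves stood at 14.7, 12.7 and 11.7 at 4 h and 5.38, 5.49 and 4.53 at 0 h. Its MT leaves at 0 h were again the low ones, at an interaction of -1.64 (SE 0.27, adjusted p = 0.0231). For LOC101256110 (chromosome 8, 52499765 to 52502668) the levels were 5.93, 5.81 and 4.83 FPKM in EX leaves at 4 h and 5.08, 5.48 and 5.45 at 0 h. LOC101256110 in MT leaves stood at 10.3, 7.64 and 10.2 at 4 h and 3.14, 3.16 and 2.55 at 0 h. MT was below EX at 0 h and above it at 4 h with no overlap at either time, and the interaction was -1.35 (SE 0.21, adjusted p = 0.0156). LOC104647892 (chromosome 6, 25915348 to 25916358) was near the floor throughout, with 1.09, 1.96 and 1.1 FPKM in EX leaves at 4 h and 2.13, 1.99 and 2.43 at 0 h, against 2.28, 2.05 and 1.14 in MT leaves at 4 h and 0.12, 0.06 and 0 at 0 h, and its interaction was -1.83 (SE 0.32, adjusted p = 0.0391). LOC101249377 (chromosome 7, 1836454 to 1840384) had 32.2, 29.6 and 27.8 FPKM in EX leaves at 4 h and 46.4, 36.6 and 52.7 at 0 h. LOC101249377 in MT leaves stood at 49.8, 33.0 and 41.5 at 4 h and 23.9, 25.5 and 21.3 at 0 h. This is 1 of 3 genes called in both lines in opposite directions, at -0.57 in EX and 0.77 in MT, and its interaction was -1.34 (SE 0.24, adjusted p = 0.0454). GLB1 and LOC101246068 were called in all 12 fits that each left out 1 library. LOC101262022 was not called without any 1 of EX 4 h replicates 1, 2 and 3, EX 0 h replicates 1 and 2, MT 4 h replicate 1 and MT 0 h replicate 3 (adjusted p 0.00281 to 0.094 over the 12 fits). LOC101256110 was not called without EX 4 h replicate 3, EX 0 h replicates 2 or 3, or MT 0 h replicate 3 (0.00386 to 0.0788). LOC104647892 was called in 3 of the 12 fits, those without EX 4 h replicate 2, MT 4 h replicate 3 or MT 0 h replicate 1 (0.0247 to 0.15), and LOC101249377 in 3, those without EX 0 h, MT 4 h or MT 0 h replicate 2 (0.0124 to 0.17).

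The mirror image, high in MT at 0 h and low elsewhere, was led by LOC101250115 (chromosome 5, 4521367 to 4525292). It had 0, 0 and 0 FPKM in EX leaves at 4 h and 0, 0.04 and 0 at 0 h. LOC101250115 in MT leaves stood at 0.08, 0 and 0 at 4 h and 12.6, 8.79 and 14.7 at 0 h. It was listed at or near 0 in the other libraries of the 4 groups, and at 12 h it stood at 0, 0 and 0 FPKM in EX and 2.54, 1.88 and 1.90 in MT. Its MT leaves fell by 3.64 on the log2 scale and its interaction was 3.62 (SE 0.22, adjusted p = 8.45e-07), the smallest adjusted p of the contrast. GABA-TP3 (chromosome 12, 921679 to 927385) encodes a transaminase that breaks down the amino acid GABA. It had 1.59, 2.11 and 1.54 FPKM in EX leaves at 4 h and 3.89, 2.92 and 4.78 at 0 h. GABA-TP3 in MT leaves stood at 2.87, 2.12 and 2.28 at 4 h and 106, 30.8 and 74.3 at 0 h. All MT libraries at 0 h were above all others although they spread widely among themselves, and the gene fell in MT by 4.22 (adjusted p = 1.39e-06) against a difference of -0.81 in EX (adjusted p = 0.142). The interaction was 3.41 (SE 0.47, adjusted p = 0.00652), and at 12 h levels were 2.07, 2.29 and 3.49 FPKM in EX and 13.2, 7.83 and 8.5 in MT.

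A further 5 genes of this kind were low in the 4 groups except in MT at 0 h. All of them but LOC101267794, and LOC101250115 too, reached a mean of 1 FPKM only in MT at 0 h. They were tested only because of the group where they are high, so their low level elsewhere is no separate result. The added model BGI_novel_G000362 (chromosome 7, 2161663 to 2165166) had 0.43, 0.67 and 0.35 FPKM in EX leaves at 4 h and 0, 0.09 and 0.25 at 0 h. BGI_novel_G000362 in MT leaves stood at 0.18, 0.09 and 0.43 at 4 h and 3.78, 2.71 and 3.97 at 0 h, for an interaction of 2.28 (SE 0.23, adjusted p = 0.000251). LOC101254912 (chromosome 7, 3440386 to 3447233) had 0, 0.06 and 0 FPKM in EX leaves at 4 h and 0.12, 0.03 and 0.05 at 0 h. LOC101254912 in MT leaves stood at 0.24, 0.09 and 0.06 at 4 h and 4.03, 4.07 and 4.23 at 0 h, for an interaction of 2.12 (SE 0.23, adjusted p = 0.000484). LOC101248405 (chromosome 7, 2960786 to 2962418), whose end lies before the start of GLB1, was listed at 0 in all EX libraries of the 4 groups, at 0.12, 0 and 0 in MT leaves at 4 h and at 2.37, 2.85 and 2.11 at 0 h. Its interaction was 1.72 (SE 0.19, adjusted p = 0.00077), with no signal on the EX side. At 12 h all 3 kept an intermediate level in MT, for example 1.11, 1.14 and 0.65 FPKM for LOC101248405, while its EX libraries were listed at 0. LOC101267794 (unplaced in the table) had 1.27, 1.05 and 1.07 FPKM in EX leaves at 4 h and 0.14, 0.73 and 0.14 at 0 h. LOC101267794 in MT leaves stood at 0.31, 1.01 and 0.49 at 4 h and 5.01, 4.82 and 4.17 at 0 h, for an interaction of 2.54 (SE 0.33, adjusted p = 0.00437). LOC101252918 (chromosome 9, 2048875 to 2053124) had 0, 0 and 0.18 FPKM in EX leaves at 4 h and 0.16, 0.19 and 0.25 at 0 h. LOC101252918 in MT leaves stood at 0, 0.11 and 0.10 at 4 h and 2.38, 1.45 and 1.72 at 0 h, for an interaction of 1.22 (SE 0.20, adjusted p = 0.0285). LOC101252918 was near 0 in MT at 12 h, at 0.18, 0.08 and 0.05. All genes of this kind but LOC101252918 were called in all 12 fits that left out 1 library. LOC101252918 was called in 3, those without MT 4 h replicate 2 or MT 0 h replicates 1 or 2 (adjusted p 0.0169 to 0.13). Because 1 FPKM was added before taking logs, these log2 values understate the change of genes this low.

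All 7 called genes on chromosome 7 belong to these 2 kinds, and all lie between 1836454 and 4380082. Chromosome 7 held 7.5% of the tested genes. Between those positions, a span set after the calls were seen, 148 genes were tested, and 46 of them (31.1%) had an unadjusted p under 0.05, compared with 6.77% of the 1181 other genes tested on chromosome 7 and 6.33% of the 17583 genes outside the span. The size of the interaction was at least 1 in 20.3% of the genes in the span and in 3.17% of those outside it. The outermost called genes set the edges, so all 7 lie inside by definition and count in the 46 and in the 20.3%. Some genes just outside the lower edge also reached that size, such as LOC101246836 at -1.75 and LOC101266040 at 1.91, neither of them called. Among the 46 genes, 27 had a negative and 19 a positive interaction. MT at 0 h was below the other 3 groups in 26 and above them in 16, and in 30 of these 42 the mean of MT at 12 h lay in between. Genes low and genes high in MT at 0 h lay side by side, as with GLB1 and LOC101248405. Without the span, 11 called genes remain of the 18. The labels name no batch, seed lot or plant of origin, so the sampling of MT at 0 h and its time point cannot be told apart here.

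**Figure D3:**
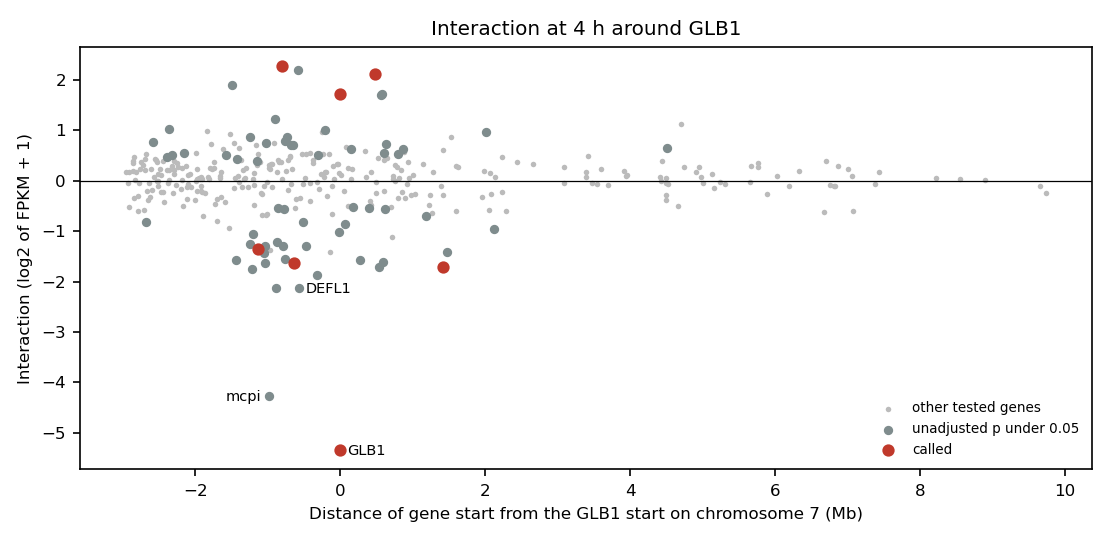
Interaction at 4 h (vertical, log2 of FPKM + 1) of tested genes that start within 10 Mb of GLB1 on chromosome 7, against the distance of their start from that of GLB1 (horizontal, Mb). All 7 called genes (red) sit within 2 Mb of GLB1, as do most genes shown with a size of at least 1. Outside the span of the called genes, 31 genes of chromosome 7 reached that size, most of them beyond the plotted range.

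Other genes in the span that carry a symbol include mcpi and DEFL1. mcpi (chromosome 7, 1989154 to 1990602), an inhibitor of carboxypeptidases that belongs to the plant defences against chewing insects, had 77.2, 157 and 148 FPKM in EX leaves at 4 h and 157, 139 and 239.7 at 0 h. mcpi in MT leaves stood at 174, 35.02 and 211 at 4 h and 13.4, 6.37 and 4.04 at 0 h. MT at 0 h lay below all other libraries, and the interaction of -4.27 had an adjusted p of 0.0601 (95% interval -5.95 to -2.59). mcpi was called only without MT 4 h replicate 2 or MT 0 h replicate 1 (0.000881 to 0.209). It had the highest group mean of the wounding markers (7 of 18 in the table) in every group but MT at 0 h, where ARG1 and ARG2 were higher at 21.87 and 12.02 FPKM against 7.95. The sum of these markers was 115.7 to 267.3 FPKM in EX at 4 h and 208.4 to 285.7 at 0 h, against 63.7 to 280.5 in MT at 4 h and 36.3 to 78.5 at 0 h, and the part of wounding in these results was not tested. DEFL1 (chromosome 7, 2394475 to 2395559), a defensin-like gene, had 307, 124 and 259 FPKM in EX leaves at 4 h and 162, 168 and 244 at 0 h. DEFL1 in MT leaves stood at 259, 82.6 and 142 at 4 h and 22.7, 38.6 and 25.3 at 0 h. It rose in MT by 2.32 (adjusted p = 0.00173) against 0.19 in EX (adjusted p = 0.856), with an interaction of -2.13 at an adjusted p of 0.432.

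In 2 called genes it was EX at 4 h that stood apart. LOC104644303 (chromosome 4, 60437911 to 60439062) had 19.5, 9.44 and 14.4 FPKM in EX leaves at 4 h and 362, 393 and 475 at 0 h. LOC104644303 in MT leaves stood at 71.8, 33.3 and 62.2 at 4 h and 313, 335 and 247 at 0 h. It fell in both lines, by 4.78 in EX and 2.46 in MT, and all EX libraries at 4 h were below all MT libraries at 4 h. The interaction was -2.32 (SE 0.40, adjusted p = 0.0374). By 12 h the lines had 21.1, 29.2 and 16.8 FPKM in EX and 31.3, 24.03 and 29.3 in MT, so the difference between them was -0.35 at 12 h and -1.86 at 4 h. LOC104644367 (chromosome 1, 88528838 to 88529566) had 0, 0.34 and 0.18 FPKM in EX leaves at 4 h and 7.89, 11.9 and 11.6 at 0 h. LOC104644367 in MT leaves stood at 12.7, 3.86 and 8.55 at 4 h and 16.5, 6.37 and 7.96 at 0 h. EX had lost nearly all signal at 4 h, while MT libraries at 4 h and 0 h overlapped, for an interaction of -2.99 (SE 0.48, adjusted p = 0.0226). At 12 h it was near 0 in both lines, at 0.19, 0.49 and 0.34 FPKM in EX and 0, 0.30 and 0 in MT. Both genes overlap another gene in the table, and no source says that strand was used in counting, so the origin of their reads is uncertain. LOC104644303 was called in 4 of the 12 fits that left out 1 library, those without EX 4 h replicate 1, MT 4 h replicate 2 or MT 0 h replicates 1 or 2 (adjusted p 0.0031 to 0.13). LOC104644367 was not called without EX 4 h replicates 1 or 3, EX 0 h replicates 2 or 3, MT 4 h replicate 3 or MT 0 h replicate 3 (0.00129 to 0.0792).

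In the remaining 3 called genes MT at 4 h was the group farthest from the mean of the others. It was not clearly apart in all of them. For BGI_novel_G000263 it overlapped EX at 0 h, and for LOC101248573 MT at 0 h lay above all other groups. LOC101263742 (chromosome 9, 4952564 to 4954858) had 106, 118 and 126 FPKM in EX leaves at 4 h and 178, 168 and 184 at 0 h. LOC101263742 in MT leaves stood at 328, 207 and 301 at 4 h and 166, 111 and 146 at 0 h. MT leaves at 4 h were above all other libraries and EX leaves at 4 h below them all except 1 MT library at 0 h, and the gene moved in opposite directions, by -0.60 in EX (adjusted p = 0.0308) and 0.97 in MT (adjusted p = 0.00121). Its interaction was -1.57 (SE 0.24, adjusted p = 0.0147), and at 12 h the lines were alike at 178, 187 and 153.6 FPKM in EX and 186, 179.8 and 187 in MT. BGI_novel_G000263 (chromosome 5, 22120996 to 22124567), an added model, had 4.04, 5.14 and 4.43 FPKM in EX leaves at 4 h and 2.32, 1.41 and 1.88 at 0 h. BGI_novel_G000263 in MT leaves stood at 0.68, 1.67 and 0.12 at 4 h and 5.65, 3.31 and 4.19 at 0 h. It rose in EX and fell in MT, for an interaction of 2.58 (SE 0.36, adjusted p = 0.00703), and MT was the higher line at 0 h and at 12 h and the lower one at 4 h. LOC101248573 (chromosome 5, 2345253 to 2346163) had 2.94, 3.95 and 3.71 FPKM in EX leaves at 4 h and 8.68, 8.70 and 6.20 at 0 h. LOC101248573 in MT leaves stood at 1.77, 0.39 and 0.58 at 4 h and 18.7, 14.7 and 12.7 at 0 h. It fell in both lines, by 3.15 in MT and 0.96 in EX, and the interaction was 2.19 (SE 0.36, adjusted p = 0.0285). At 12 h both lines were low, at 0.75, 1.70 and 0.44 FPKM in EX and 0.43, 0.37 and 0.44 in MT. BGI_novel_G000263 was called in all 12 fits that left out 1 library, but not in the fit on the 12 libraries of the 4 groups, with a pseudocount of 0.1, or without replicate 1 of MT at 0 h and at 4 h together (adjusted p up to 0.0734). LOC101263742 was not called without EX 4 h replicate 1 or EX 0 h replicates 1 or 3 (adjusted p 0.000881 to 0.0584). LOC101248573 was called in 5, those without MT 4 h replicates 1 or 2 or any 1 MT library at 0 h (0.00495 to 0.109).

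Genes with a symbol that came next in order of p were not called and are given as values. AS1 encodes asparagine synthetase, which stores nitrogen as asparagine and is known to be high in darkness. It had 28.3, 16.9 and 20.5 FPKM in EX leaves at 4 h and 21.4, 23.6 and 9.15 at 0 h. AS1 in MT leaves stood at 14.5, 25.4 and 19.5 at 4 h and 129, 93.7 and 88.3 at 0 h. MT at 0 h was above all other libraries, and AS1 fell in MT by 2.34 (adjusted p = 0.0016), while the interaction of 2.68 had a 95% interval of 1.41 to 3.95 and an adjusted p of 0.186. THOM1, a homeobox gene, had 5.38, 4.71 and 3.45 FPKM in EX leaves at 4 h and 3.14, 3.05 and 2.04 at 0 h, against 3.14, 2.04 and 3.21 in MT leaves at 4 h and 10.1, 4.10 and 8.35 at 0 h, with an interaction of 1.66 (adjusted p = 0.215). COP1, a ubiquitin ligase that holds back light signalling, had 27.99, 22.4 and 22.8 FPKM in EX leaves at 4 h and 11.6, 9.82 and 11 at 0 h. COP1 in MT leaves stood at 15.3, 24.99 and 17.1 at 4 h and 19.7, 16.01 and 20.2 at 0 h. It rose in EX by 1.101 (adjusted p = 0.00131) against 0.01 in MT (adjusted p = 0.976), but the interaction of 1.09 had an adjusted p of 0.301. On the negative side, ERF-H1, an ethylene response factor gene, had 2.78, 3.04 and 4.95 FPKM in EX leaves at 4 h and 21.3, 18.98 and 23.8 at 0 h. ERF-H1 in MT leaves stood at 40.5, 10.1 and 32.2 at 4 h and 27.5, 10.8 and 6.68 at 0 h. It fell in EX by 2.31 (adjusted p = 0.00957) with no overlap between times, while MT libraries overlapped, at an interaction of -3.16 (adjusted p = 0.251). THOM1 was called only without MT 0 h replicate 2 (adjusted p 0.021 to 0.574 over the 12 fits) and ERF-H1 only without MT 4 h replicate 2 (0.0427 to 0.605).

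**Figure D4:**
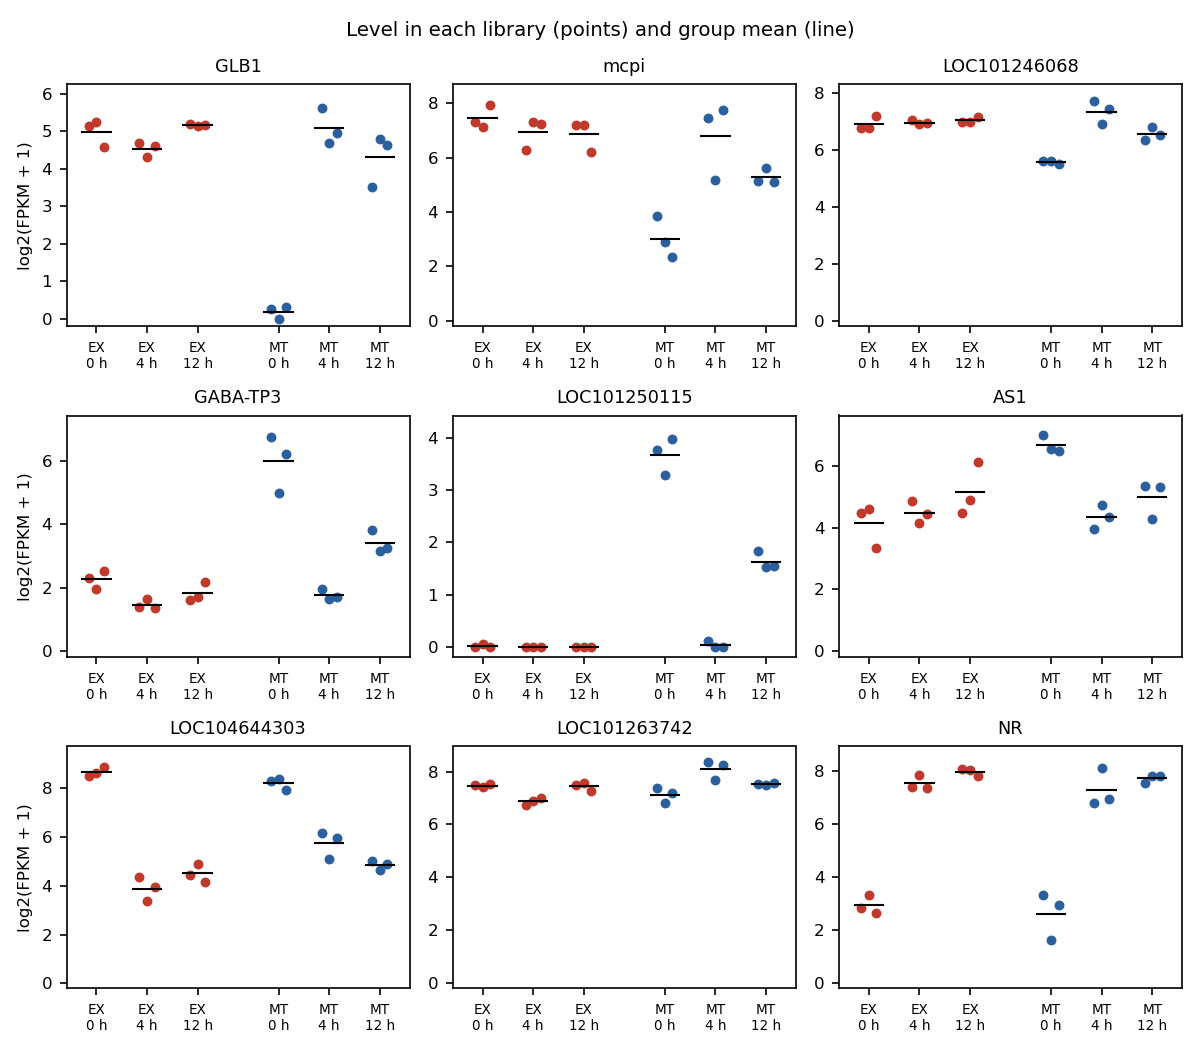
Level of 9 genes as log2(FPKM + 1) in each library (points) with the group mean (line), EX at 0, 4 and 12 h on the left of each panel and MT on the right. GLB1, mcpi and LOC101246068 are low, and GABA-TP3, LOC101250115 and AS1 high, in MT at 0 h, LOC104644303 is lowest in EX at 4 h, LOC101263742 is highest in MT at 4 h, and NR is alike in both lines.

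Xyloglucan endotransglucosylases (XTH) had the lowest median interaction of the 32 gene groups examined. These enzymes cut and rejoin the xyloglucan chains that tether cellulose, and expansins loosen the same network without cutting it, so both are known to go with leaf growth. None of the 14 XTH entries tested was called. Of these, 7 had a negative and 0 a positive interaction at an unadjusted p under 0.05, where 3.11% of all genes were negative, and the median of the 14 was -1.05 beside 0.04 for all genes. In EX 7 XTH entries fell (5.05% of all genes fell) and in MT 3 (7.52%), and 0 rose in either line. The median stayed between -1.40 and -0.73 when any 1 library was left out. The entries are not separate observations, since their levels can shift together from library to library. In MT leaves at 0 h, replicates 1 to 3 had 279, 106 and 31.9 FPKM of XTH3 and 287, 122.2 and 46.8 of tXET-B2. BR1, at 1337, 1527 and 634, did not follow that order. The counts of XTH entries are therefore a description and no test of the family.

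XTH3 had 18.9, 13.3 and 34.8 FPKM in EX leaves at 4 h and 158, 231 and 288 at 0 h. XTH3 in MT leaves stood at 88.2, 68.6 and 73.0 at 4 h and 279, 106 and 31.9 at 0 h. Within the 4 groups, EX libraries at 4 h were below all others but 1 MT library at 0 h, and MT libraries at 0 h ranged from above to below those at 4 h. At 12 h XTH3 stood at 28.2, 31.2 and 14.9 FPKM in EX, which overlapped EX at 4 h, and 37.05, 36.1 and 41.05 in MT. It fell in EX by 3.35 (adjusted p = 0.000904) against -0.37 in MT (adjusted p = 0.715), and its interaction was -2.98 (95% interval -4.63 to -1.32, adjusted p = 0.383). XTH3 overlaps another gene and is uncertain, and it was called only without MT 0 h replicate 1 (adjusted p 0.0259 to 0.788). BR1, an XTH gene known to respond to brassinosteroids, had 90.8, 126 and 109.7 FPKM in EX leaves at 4 h and 1259, 735 and 1044 at 0 h. BR1 in MT leaves stood at 368, 241 and 474 at 4 h and 1337, 1527 and 634 at 0 h. Here all EX libraries at 4 h were below all MT libraries at 4 h, after falls of 3.19 in EX and 1.64 in MT that were both called (interaction -1.54, adjusted p = 0.494). At 12 h the lines overlapped, at 94.96, 155 and 116 FPKM in EX and 107, 121.3 and 148 in MT. tXET-B2 had 10.7, 7.61 and 20.1 FPKM in EX leaves at 4 h and 202, 264 and 335 at 0 h, against 36.5, 25.1 and 34.4 in MT leaves at 4 h and 287, 122.2 and 46.8 at 0 h, also called as lower in both lines (interaction -2.48, adjusted p = 0.508). XET2 and XTH1 had negative interactions of -1.41 and -1.065 with no call in either line. For XTH1 the levels were 254, 259 and 259 FPKM in EX leaves at 4 h and 303, 296 and 309.5 at 0 h, against 579, 343 and 550.0 in MT leaves at 4 h and 287, 387 and 174 at 0 h, and MT libraries at 4 h were above EX libraries at 4 h. XTH16 was called as lower in both lines, by -0.86 in EX and -0.83 in MT, with an interaction interval of -0.68 to 0.61. tXET-B1, tXET-B2 and the 2 entries named XTH9, 1 of them unplaced and partial, are close relatives whose reads the authors' counting could have split, so their separate values are uncertain.

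Of 12 expansins tested, 0 were called, 3 had a negative interaction at an unadjusted p under 0.05 (3.11% of all genes) and 0 a positive one (3.43%), and the median was -0.08. In EX 5 rose (6.34% of all genes rose) and 1 fell, and in MT 4 rose (6.84%) and 0 fell. EXLA1, an expansin-like gene, had 249, 431 and 369 FPKM in EX leaves at 4 h and 719, 698 and 485 at 0 h. EXLA1 in MT leaves stood at 893, 523 and 770.2 at 4 h and 399, 461 and 251 at 0 h. EX was above MT at 0 h and below it at 4 h with no overlap at either time, and the interaction of -1.86 had an adjusted p of 0.158 (95% interval -2.71 to -1.01). EXP5 fell in EX by 0.64 (adjusted p = 0.0363) while its difference in MT was positive at 0.24 (adjusted p = 0.442), at an interaction of -0.88 (adjusted p = 0.508). EXP12 and EXP2 rose in both lines. For EXP12 the changes were 1.83 in EX and 1.89 in MT, with an interaction interval of -0.86 to 0.75, and for EXP2 they were 3.66 in EX and 3.02 in MT, with an interval of -1.001 to 2.28.

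**Figure D5:**
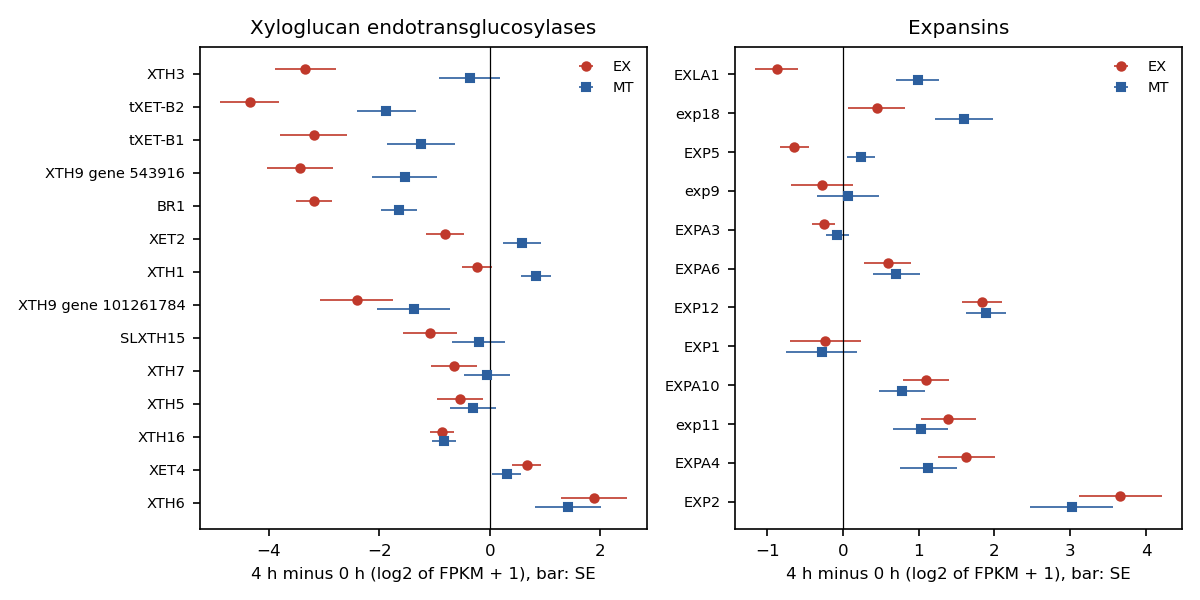
Change between 0 h and 4 h (log2 of FPKM + 1, bars are SE) in EX (circles) and MT (squares) for 14 XTH entries and 12 expansins, ordered by interaction. The EX point lies left of the MT point for most XTH entries, by -2.98 for XTH3, while the expansins from EXPA6 to EXP2 have close or overlapping points.

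Among 11 tested genes of nitrogen assimilation and hemoglobin, GLB1 was the 1 called gene, and AS1 and nii1, the nitrite reductase gene, also had an unadjusted p under 0.05. For comparison with this group and the GABA group below, 0.102% of all tested genes were called and 6.54% had an unadjusted p under 0.05. NR encodes nitrate reductase, which makes the nitrite that nitrite reductase uses. It had 167, 228 and 166 FPKM in EX leaves at 4 h and 6.07, 9.13 and 5.32 at 0 h. NR in MT leaves stood at 110.2, 274 and 121.6 at 4 h and 8.89, 2.1 and 6.66 at 0 h. NR rose by nearly the same amount in each line, 4.597 in EX and 4.65 in MT, with an interaction of -0.06 and a 95% interval of -1.18 to 1.07. nii1 had 68.7, 72.4 and 62.6 FPKM in EX leaves at 4 h and 54.1, 52.4 and 56.01 at 0 h. nii1 in MT leaves stood at 47.5, 71.5 and 60.2 at 4 h and 25.8, 35.6 and 31.7 at 0 h. It rose in MT by 0.91 (adjusted p = 0.00311) against 0.32 in EX (adjusted p = 0.311), and the interaction of -0.60 had an adjusted p of 0.713. In the GABA group of 7, GABA-TP3 was called, and the gene of the next step, SSADH (succinic semialdehyde dehydrogenase), had an interaction of 0.37 (95% interval 0.03 to 0.70, adjusted p = 0.719). The median interactions of the nitrogen group and the GABA group were -0.21 and 0.38.

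Of 60 tested genes of auxin response and transport, 0 were called. At an unadjusted p under 0.05, 7 were positive (3.43% of all genes) and 2 negative (3.11%), and the median was 0.18. The 7 include repressors of the Aux/IAA family (IAA5, IAA12, IAA15 and IAA27), the response factor ARF8a, and PIN4, a carrier that exports auxin from cells. IAA12 had 10.7, 9.87 and 11.1 FPKM in EX leaves at 4 h and 8.42, 7.30 and 7.32 at 0 h, against 11.2, 9.83 and 10.2 in MT leaves at 4 h and 11.2, 11.5 and 13.98 at 0 h, at an interaction of 0.62 (adjusted p = 0.336). ARF8a had 73.5, 71.4 and 68.4 FPKM in EX leaves at 4 h and 36.2, 41.04 and 35.1 at 0 h. ARF8a in MT leaves stood at 38.9, 70.9 and 55.4 at 4 h and 39.4, 41.8 and 50.9 at 0 h. EX and MT overlapped at both times, and ARF8a rose in EX by 0.91 (adjusted p = 0.00237) against 0.28 in MT (adjusted p = 0.293), at an interaction of 0.63. On the negative side, GH3-17, of the family that joins auxin to amino acids, had 1.1, 1.01 and 1.62 FPKM in EX leaves at 4 h and 1.62, 2.68 and 0.60 at 0 h. GH3-17 in MT leaves stood at 6.27, 3.19 and 4.45 at 4 h and 1.6, 1.90 and 1.55 at 0 h. It rose in MT by 1.04 (adjusted p = 0.0217), with an interaction of -1.197 (adjusted p = 0.578). Leaving out MT 0 h replicate 2 gave 11 positive auxin genes, and leaving out MT 0 h replicate 3 gave 3.

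The cold regulators showed no called interaction, with 0 of 9 also at an unadjusted p under 0.05 and a median of 0.06. Over all tested genes 0.102% were called and 6.54% had an unadjusted p under 0.05. Counts of 0 in a group this small are therefore no result about cold regulators. CBF1, the activator known for switching on cold genes within hours, had 27.4, 19.7 and 28.7 FPKM in EX leaves at 4 h and 91.6, 131 and 137 at 0 h. CBF1 in MT leaves stood at 20.2, 15.6 and 14.7 at 4 h and 80.2, 29.6 and 111 at 0 h. It fell in both lines, with log2 changes of -2.198 in EX (adjusted p = 0.0222) and -1.88 in MT (adjusted p = 0.0414), and levels at 4 h and 0 h did not overlap in either line. The interaction was -0.31, but its 95% interval, -2.06 to 1.44, was wide. HY5, a factor of light and cold signalling, had 11.9, 5.34 and 10.2 FPKM in EX leaves at 4 h and 1.38, 1.02 and 1.72 at 0 h, against 8.71, 14.5 and 7.10 in MT leaves at 4 h and 10.5, 2.13 and 3.30 at 0 h, and rose in EX by 2.05 (adjusted p = 0.00458) against 0.99 in MT (adjusted p = 0.131), at an interaction of 1.05 with an interval of -0.21 to 2.31. CO1, of the CONSTANS family that links day length to the clock, rose by 3.24 in EX and 3.43 in MT, at an interaction interval of -1.103 to 0.72. The 22 genes of photosystems and light harvesting had 0 called and 0 at an unadjusted p under 0.05, with a median of 0.08 and a range of -0.51 to 0.65. The 22 heat shock and chaperone genes likewise had 0 of both, with a median of 0.24, and 3 of them fell in EX (5.05% of all genes) and 6 in MT (7.52%). Beside the shares of 0.102% and 6.54% over all tested genes, the counts of 0 are no result about these groups either.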

How the data were processed

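Leaves of 2 tomato lines at 0, 4 and 12 h were profiled by RNA-seq, 3 libraries per group. The authors deposited, per the file headers, FPKM for each gene in each library in 1 table, together with their own log2 ratios between groups, which are quoted only where the authors' deposited table is named. The tools were DESeq2 1.4.5, RSEM 1.2.12, Bowtie2 2.2.5 and HISAT2 2.0.4, per the submitters' processing notes, which state no roles. For the genome build, the sources used here give none. Coordinates are the table's own, and names came from the table and from a RefSeq table of assembly SLM_r2.1, which held 21649 of the identifiers. RSEM-type estimates split reads between related genes, which makes family members uncertain.

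Values were transformed to log2(FPKM + 1). Genes whose mean reached 1 FPKM in any of the 4 groups were fitted with limma 3.58.1 in R 4.3.3 (6 group means over all 18 libraries, variance moderated with a trend), and p-values were adjusted by Benjamini-Hochberg over all 17731 genes. All tests are two-sided, and called means an adjusted p under 0.05. Intervals are 95%. The fit was run on simulated data with the same spread in all groups. That run could not show what the unequal spreads of these groups do to the calls. Fragments per library came from low values of genes with 1 transcript of 350 to 800 bases, of which 91.9 to 95% lay within 0.1 of a whole fragment. Figures were drawn with matplotlib 3.10.9.

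The contrast, the 32 gene lists and the markers were chosen with earlier results of these data known. The rule for named genes took called genes with at least 5 FPKM in a group up to a fixed number, the symbol genes with the smallest p, members of the lists described, and CBF1, GLB1 and NR. Outside it, and chosen after their values were seen, are the 7 called genes under 5 FPKM, LOC101256110 and LOC101249377, which exceeded that number, and XTH and expansin members beyond 2 a list. Alternatives tried were other fits, filters, pseudocounts, scaling and leaving out libraries.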

Additional observations from a re-analysis of the deposited data

Results flagged for a closer look

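The 18 called genes are listed here because the change between 4 h and 0 h differed between EX and MT by the interaction test itself, given on the log2(FPKM + 1) scale. Positive values set apart by MT at 0 h were LOC101250115 at 3.62, GABA-TP3 at 3.41, LOC101267794 at 2.54, BGI_novel_G000362 at 2.28, LOC101254912 at 2.12, LOC101248405 at 1.72 and LOC101252918 at 1.22. Negative values set apart by MT at 0 h were GLB1 at -5.34, LOC104647892 at -1.83, LOC101246068 at -1.72, LOC101262022 at -1.64, LOC101256110 at -1.35 and LOC101249377 at -1.34. MT at 4 h was the farthest group for BGI_novel_G000263 at 2.58, LOC101248573 at 2.19 and LOC101263742 at -1.57, though it overlapped EX at 0 h for BGI_novel_G000263. EX at 4 h stood apart for LOC104644303 at -2.32 and LOC104644367 at -2.99. With 3 libraries a group, no test for single outlying values was run.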

How the results depend on the processing

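The interaction was called for 18 genes. The count was 7 when the 12 libraries of the 4 groups were fitted alone (6 of the 18 kept), 8 when a gene needed 5 FPKM or more in 3 or more libraries (2 positive, 6 negative, 8 kept), and 11 with weights per group (all among the 18). It was 19 with a pseudocount of 0.1 (6 positive, 13 negative), 25 with no filter, 19 with median-of-ratios scaling, which moved the median interaction to 0.00, 18 with robust moderation, and 15 without replicate 1 of MT at 0 h and at 4 h (11 kept). Leaving out 1 library gave 10 to 37 calls. The lowest was without replicate 3 of EX at 4 h or at 0 h, and the count was 11 without EX 4 h replicate 1 or EX 0 h replicates 1 or 2, 37 without MT 0 h replicate 1, 34 without MT 0 h replicate 2 and 33 without MT 4 h replicate 2. Calls for the change in EX were 2020, 3384 with weights per group and 1188 to 2325 with 1 library left out. For the change in MT they were 2546, 901 with weights per group and 1816 to 3112 with 1 library left out. The 6 genes kept by the fit on 12 libraries, GLB1, LOC101250115, BGI_novel_G000362, LOC101254912, LOC101248405 and LOC101267794, were also called in each other fit that tested them. In the fit on 12 libraries GABA-TP3 had an adjusted p of 0.0592 and LOC101246068 one of 0.0734. The cause of these shifts was not tested. Alternatives were run by gene for the 18 called genes and 10 others, and among these the interaction changed sign for CBF1 (-0.70 to 0.23 with 1 library left out, 0.23 without MT 0 h replicate 2) and for NR (-0.40 to 0.44, with 0.015 and 0.021 without EX 4 h replicates 1 and 3, 0.14 without EX 0 h replicate 2, 0.36 without MT 4 h replicate 2, 0.44 without MT 0 h replicate 2), neither of them called.

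Same-numbered libraries had correlated deviations above 0.1 in 6 of 18 pairs (-0.42 to 0.47). Between 4 h and 0 h within a line, replicates 1, 2 and 3 had 0.11, 0.22 and -0.26 in EX and 0.46, -0.14 and 0.11 in MT. These values do not settle whether the numbers mark pairs. With the replicate block the counts were 13 for the interaction (all among the 18), 1999 for EX and 2578 for MT. With 3 libraries a group and 15950000 to 18350000 fragments each, values of genes near 1 FPKM rest on few fragments. Differences in response under about 0.58 on the log2 scale could not be told from 0 for a typical gene, even before adjustment. A call after adjustment needed more, and the smallest called size was 1.22.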

Other observations

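Of the 32 gene groups, 30 held no called gene, 14 held no gene at an unadjusted p under 0.05, and 30 had a median interaction between -0.5 and 0.5. Over all tested genes 0.102% were called and 6.54% had an unadjusted p under 0.05. The groups were made of gene symbols, and only 2 of the 18 called genes carry a symbol. A group without such genes is therefore no result about that group. Some genes of the other groups changed in both lines. hqt, which makes chlorogenic acid, rose by 2.83 in EX and 1.80 in MT (interaction 1.04, adjusted p = 0.698), and ANS, of anthocyanin synthesis, fell by 0.80 in EX and 1.29 in MT (0.49, adjusted p = 0.739). GME1, of ascorbate synthesis, rose by 1.28 in EX and 0.77 in MT (0.51, adjusted p = 0.654). WRKY40, a stress-related factor, fell by 2.23 in EX and 1.42 in MT (-0.81, adjusted p = 0.696), and HMG3, of the sterol pathway, by 2.52 in EX and 1.85 in MT (-0.67, adjusted p = 0.739).

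Of 20 cell cycle genes tested, 0 were called and 3 had a negative interaction at an unadjusted p under 0.05, beside 3.11% of all genes. These were cdc20-1 at -0.85, CCS52B at -1.02 and CDKB2, a mitotic kinase, at -1.23. The count of negative cell cycle genes was 0 in the fit on 12 libraries and 0 without MT 0 h replicate 1.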
